A study of Rattus norvegicus with 58 samples.

Results

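Cells answer DNA damage and related stress by stabilising p53, a transcription factor that switches on genes for cell cycle arrest, repair, apoptosis and its own negative feedback. The genes described here are 9 established p53 targets: Mdm2, Cdkn1a, Bbc3, Bax, Ccng1, Gadd45a, Fas, Sesn1 and Zmat3. They were taken as the probe sets whose only gene symbol is one of these names, which gave 14 of the 31099 probe sets on the array and 8 of the 9 genes. The probe set that names Bax, a protein that opens the mitochondrial outer membrane, carries 2 symbols, so Bax was not analysed here.

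The arrays came from a 5-day gavage study of 4-methylcyclohexanemethanol (MCHM), an alicyclic alcohol used in coal washing, in male Harlan Sprague-Dawley rats. Liver and kidney were profiled at 0.1, 1, 10, 100, 300 and 500 mg/kg with 4 arrays per dose and organ, and the 0 mg/kg group of each organ, with 5 arrays, was its control. That made 29 arrays per organ and 58 in all, which the labels call biological replicates. The rats' age and the vehicle were not stated in the sources at hand. With so few arrays in a group, array number sets the precision of every value below.

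Values are log2 RMA intensities, and a difference of 1 is a doubling. Dim probe sets were set aside: to be tested in an organ, a probe set had to exceed the 40th percentile of the array on 4 or more arrays there. The brightest remaining probe set stood for its gene. Of the 14 probe sets, 12 passed in liver and 10 in kidney, which left 8 of the genes for testing in liver and 7 for kidney. Fas was the gene that did not pass in kidney. Genes were called in limma at 0.05 after Benjamini-Hochberg adjustment across every gene tested, two-sided.

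The organs matched their labels. Hepatocyte markers averaged 13.8 to 13.9 on the liver arrays and proximal tubule markers 11.8 to 12.3 on the kidney arrays. The kidney control of replicate 2 stood apart with a hepatocyte marker mean of 7.83, against 4.75 to 6.01 on the other kidney arrays. Another pair of kidney arrays, replicate 3 at 300 mg/kg and replicate 3 at 500 mg/kg, had adipose marker means of 8.93 and 8.10, against at most 5.05 on the others. Kidney values of the members that changed sign or moved by more than 1.5 times without that control, or without this pair, are given both ways where they are named. In RNA from a whole organ, fewer cells of a type and less RNA per cell cannot be told apart.

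The target genes carry p53 response elements in promoters or introns, and 6 of the 9 had an entry in the RefSeq promoter table of assembly GRCr8 (250 bases before to 50 after the gene start). A p53 half-site without mismatch, searched on both strands, was found in 4 of these 6 windows and in 7.98% of all 33469 promoters of the same length. None of the 6 windows held a full site without mismatch, a pair of such half-sites at most 13 bases apart, which 0.0598% of all promoters held. Full sites in which either half-site has a mismatch were not searched for, so an imperfect partner beside a half-site is not counted. The GC box GGGCGG, the motif of Sp1, occurred in 5 of 6 windows and in 33.1% of all promoters. TATAAA occurred in none of the 6 and in 14.2% of all promoters. No half-site shared a base with a GGGCGG match. A match is a description of letters and not a measured binding site. The windows of Cdkn1a and Gadd45a, the genes with the widest spread in liver, and of Ccng1, the gene with the largest excess in kidney, are shown 5′ to 3′ on the gene's strand with the half-site in capitals.
Cdkn1a: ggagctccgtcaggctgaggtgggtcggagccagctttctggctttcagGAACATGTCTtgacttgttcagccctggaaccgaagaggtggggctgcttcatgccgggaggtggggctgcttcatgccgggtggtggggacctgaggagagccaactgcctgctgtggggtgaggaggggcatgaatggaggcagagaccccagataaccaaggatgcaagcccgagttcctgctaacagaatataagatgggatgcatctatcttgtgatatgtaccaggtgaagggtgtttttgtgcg
Gadd45a: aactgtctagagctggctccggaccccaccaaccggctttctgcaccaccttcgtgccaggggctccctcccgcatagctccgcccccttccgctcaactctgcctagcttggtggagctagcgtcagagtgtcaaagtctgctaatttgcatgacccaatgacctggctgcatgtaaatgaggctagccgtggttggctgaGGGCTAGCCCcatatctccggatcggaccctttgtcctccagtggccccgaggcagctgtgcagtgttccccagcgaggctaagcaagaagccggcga
Ccng1: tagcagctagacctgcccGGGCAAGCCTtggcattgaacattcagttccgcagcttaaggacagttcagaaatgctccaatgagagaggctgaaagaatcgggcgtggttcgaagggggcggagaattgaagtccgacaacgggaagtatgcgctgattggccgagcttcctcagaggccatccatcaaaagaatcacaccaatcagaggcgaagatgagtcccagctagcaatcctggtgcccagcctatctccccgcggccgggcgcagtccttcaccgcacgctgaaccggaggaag
The Cdkn1a window is chr20:7150682-7150981 on the plus strand, and its half-site lies at -201 to -192 from the gene start. The Gadd45a window is chr4:97486750-97487049 on the minus strand, with the half-site at -48 to -39. The Ccng1 window is chr10:25684827-25685126 on the minus strand, with the half-site at -232 to -223. In Sesn1 (chr20:46948469-46948768, plus strand) the half-site AAGCTTGTTT lay at -172 to -163. The windows of Mdm2 and Fas held no match to these letters.

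No p53 target gene was called at any dose of MCHM in either organ. In liver, 0 of 8 genes were called in limma at each of the 6 doses, against 0% of all genes at 0.1, 1, 10 and 100 mg/kg, 0.0266% at 300 mg/kg and 0.958% (108 of 11275 genes) at 500 mg/kg. In kidney, 0 of 7 genes were called at each dose, against 0% of all genes up to 100 mg/kg and 0.0268% at 300 and at 500 mg/kg. At an unadjusted p under 0.05, 4 of the 48 gene and dose combinations in liver passed, 1 each at 0.1, 1, 10 and 500 mg/kg. The shares of all genes that did so in liver, in order of dose, were 4.1%, 5.83%, 6.39%, 3.68%, 7.89% and 13.9%. In kidney 1 of 42 combinations passed, at 500 mg/kg, beside 8.14%, 9.33%, 6.27%, 4.81%, 5.74% and 9.58% of all genes. The combinations in liver were Cdkn1a at 0.1, 1 and 10 mg/kg, below control, and Bbc3 at 500 mg/kg, above control.

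Groups without overlap were as rare. In liver a dosed group lay wholly outside its control range for 1, 0, 1, 0, 0 and 0 of the 8 genes in order of dose. The same held for 1.48%, 2.4%, 2.41%, 1.51%, 3% and 5.59% of all genes. In kidney it held for 0 of 7 genes at each dose, beside 1.87%, 1.92%, 1.63%, 1.45%, 1.38% and 3.19% of all genes. The median difference of the 8 genes at 500 mg/kg in liver was -0.07, beside 0.01 over all genes tested, and 3 of the 8 lay above 0. In kidney the median of the 7 genes at 500 mg/kg was -0.03, beside 0.02 over all genes, and again 3 lay above 0.

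The 95% confidence intervals of the fit bound how large a rise these arrays could have missed. The upper bound was under 1.5-fold in 43 of 48 combinations in liver and in 41 of 42 in kidney. It was under 2-fold in 47 of 48 in liver and in 42 of 42 in kidney. Both bounds lay within 1.5-fold in 32 of 48 combinations in liver and 41 of 42 in kidney. The widest intervals in liver belonged to Gadd45a (SE 0.38), Cdkn1a (SE 0.27) and Fas (SE 0.20).

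**Figure D1:**
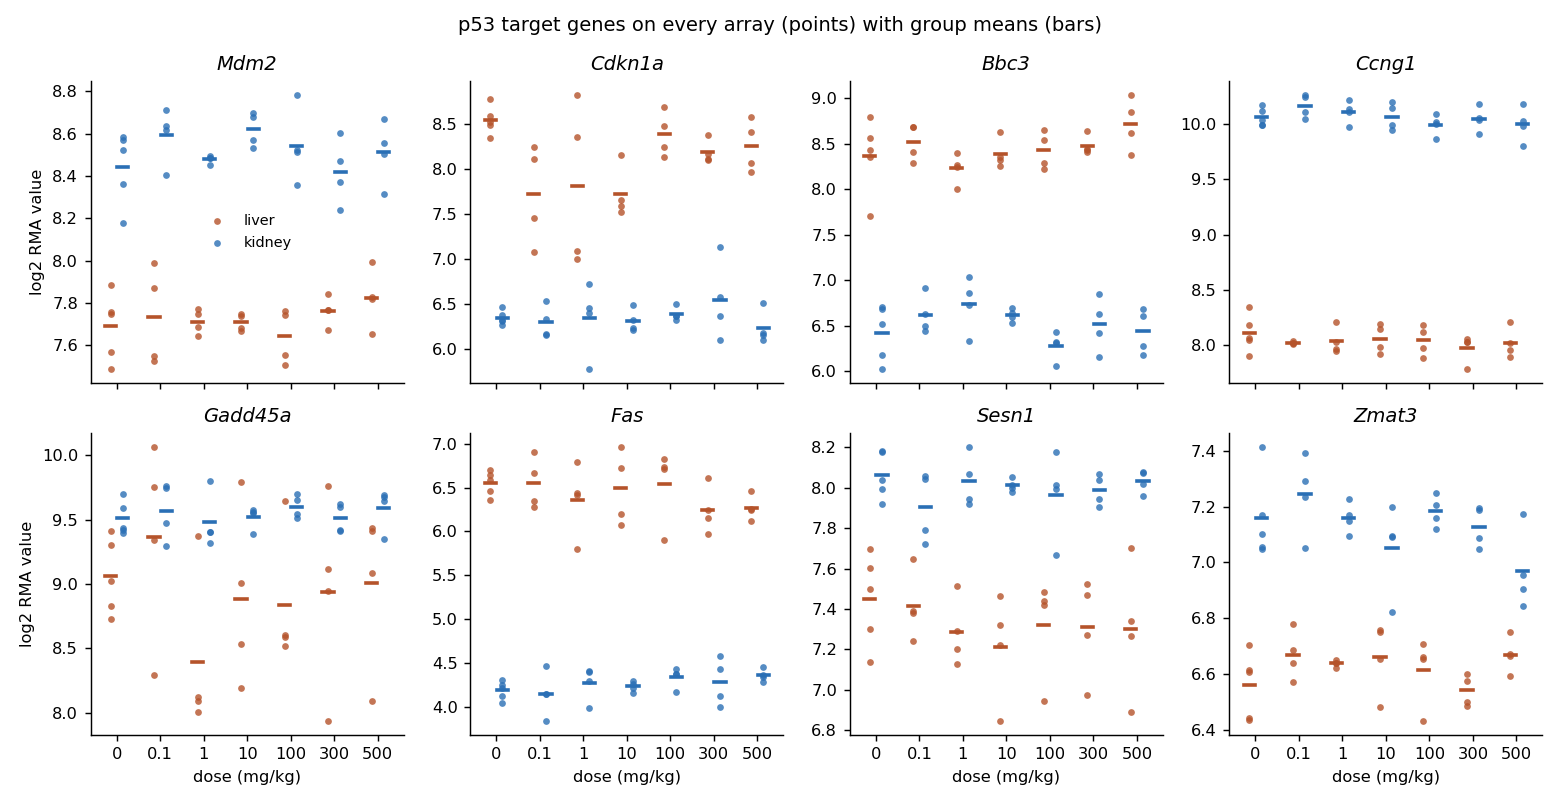
Log2 RMA values (vertical axes) of the 8 measured p53 target genes against dose in mg/kg (horizontal axes, evenly spaced by rank), with 1 point per array and a bar at each group mean, liver in orange and kidney in blue. By group mean Cdkn1a, Bbc3 and Fas sit higher in liver at every dose, and Ccng1, Mdm2, Sesn1, Zmat3 and Gadd45a in kidney. Gadd45a arrays overlap between organs, and dose groups of an organ overlap for nearly all genes. Fas in kidney did not pass the filter on dim probe sets, so it has no fold between organs.

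**Figure D2:**
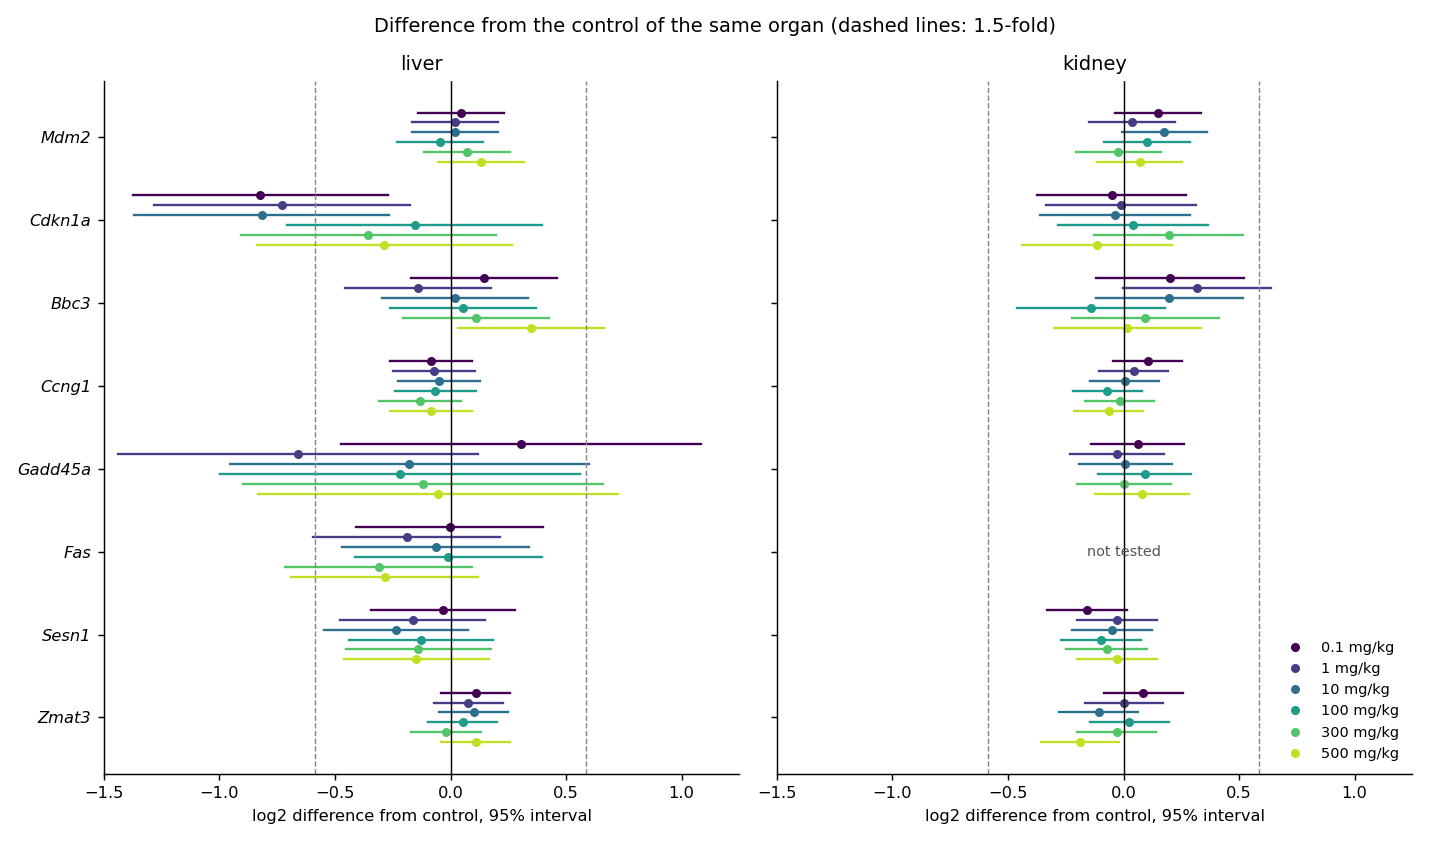
Difference of each dose group from the control of the same organ on the log2 scale (points) with the 95% confidence interval of the limma fit (lines), for each gene and dose. The intervals of Cdkn1a at 0.1, 1 and 10 mg/kg in liver lie below 0, and the upper bound is under the dashed 1.5-fold line in 43 of 48 combinations in liver and 41 of 42 in kidney.

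Mdm2 encodes the ubiquitin ligase that marks p53 for degradation, and its induction by p53 closes a feedback loop. In liver its probe set 1383288_at read 7.49, 7.89, 7.75, 7.76 and 7.57 in the controls and 7.82, 7.65, 7.83 and 7.99 at 500 mg/kg. Both groups overlapped, and the difference was 0.13 (SE 0.09, limma adjusted p = 0.557, 3 of 4 dosed arrays above the control mean). Over the other doses in liver the difference ranged from -0.05 at 100 mg/kg to 0.07 at 300 mg/kg. In kidney the Mdm2 differences ranged from -0.02 at 300 mg/kg to 0.18 at 10 mg/kg, where 4 of 4 arrays lay above the control mean (SE 0.09, adjusted p = 0.796 in limma). The mean of the control kidneys was taken over 8.52, 8.18, 8.36, 8.59 and 8.57, and the lowest of these, 8.18, was the array with hepatocyte transcripts. Without that control the Mdm2 difference at 10 mg/kg was 0.11 (SE 0.09, adjusted p = 0.998 in limma), and the kidney range was -0.09 to 0.11. Without both adipose-rich kidneys the Mdm2 difference at 300 mg/kg was -0.04 (SE 0.10). Of the other Mdm2 probe sets, 1384427_at followed the first from array to array (r = 0.70 in liver and 0.78 in kidney over 29 deviations from the dose means). Probe set 1383485_at followed it less closely (r = 0.27 and 0.14). It was also the one with a kidney difference of -0.28 (SE 0.11) at 1 mg/kg, with an adjusted p of 0.525 when limma was run on all probe sets that passed the filter.

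Cdkn1a encodes p21, the inhibitor of cyclin-dependent kinases through which p53 arrests the cell cycle. In control livers its probe set 1388674_at was tight, at 8.52, 8.59, 8.49, 8.78 and 8.35. The 0.1 mg/kg livers read 8.11, 7.08, 7.45 and 8.25, and the 10 mg/kg livers read 7.65, 7.52, 8.16 and 7.59. All 8 arrays of these groups lay below the lowest control. At 0.1 mg/kg the difference was -0.82 (SE 0.27, unadjusted p = 0.00499 and adjusted p = 1.00 in limma), and 1.48% of all genes likewise had groups without overlap. At 10 mg/kg it was -0.82 (SE 0.27, adjusted p = 0.714 in limma), with 2.41% of all genes without overlap. At 1 mg/kg the livers split, with 8.83 and 8.35 beside 6.997 and 7.09. The difference there was -0.73 (SE 0.27, adjusted p = 0.806 in limma), and the group overlapped the controls.

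The higher doses did not continue this displacement. Livers at 100 mg/kg read 8.13, 8.48, 8.70 and 8.25, those at 300 mg/kg 8.17, 8.11, 8.39 and 8.10, and those at 500 mg/kg 8.58, 8.41, 7.97 and 8.07. All 3 groups overlapped the controls, with differences of -0.16, -0.36 and -0.29 (SE 0.27 each). The dose order by mean was therefore control, 100, 500, 300, 1, 10 and 0.1 mg/kg from high to low. The widest step between neighbours, 0.37, was smaller than the pooled SD within doses of 0.44. From highest to lowest the means spanned 0.82, or 1.86 times that SD. The second Cdkn1a probe set, 1387391_at, gave -0.65, -0.69 and -0.68 at 0.1, 1 and 10 mg/kg and -0.05, -0.08 and -0.27 at the higher doses. Its deviations from the dose means followed those of the first probe set from liver to liver (r = 0.82 over 29 arrays).

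**Figure D3:**
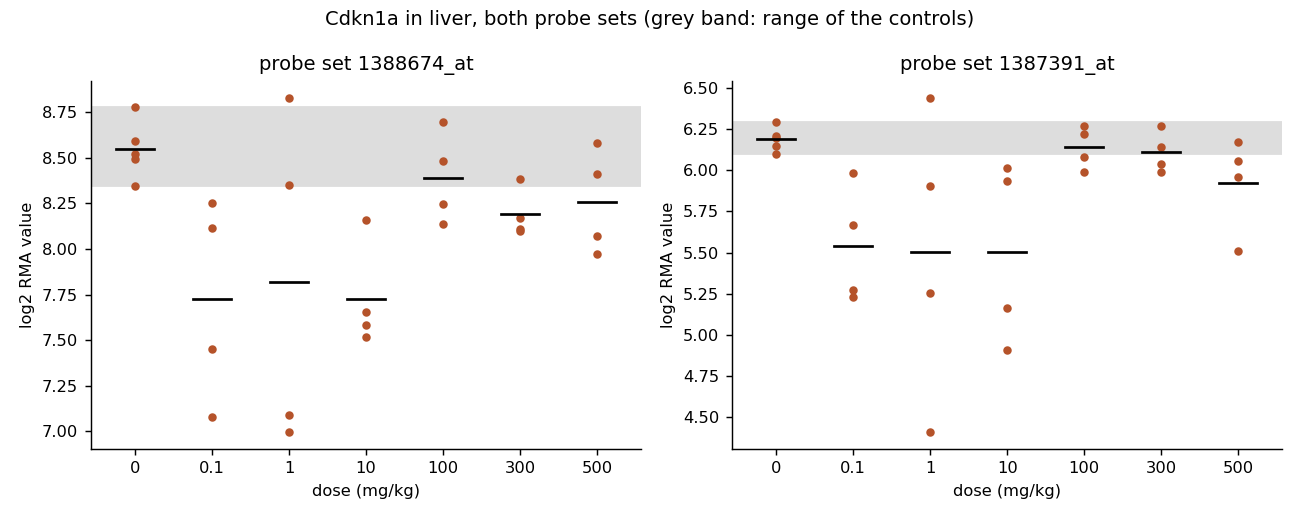
Log2 RMA values of both Cdkn1a probe sets in liver against dose in mg/kg (evenly spaced by rank), with 1 point per array, a bar at each group mean and a grey band over the range of the 5 controls. On 1388674_at all 8 arrays at 0.1 and 10 mg/kg lie under the band, as do 2 of 4 at 1 mg/kg, while the groups from 100 mg/kg upwards reach into it.

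In kidney Cdkn1a stayed within 0.20 of control at every dose. Its highest kidney value, 7.13, was on replicate 3 at 300 mg/kg, which also had the highest adipose marker mean. With that array the 300 mg/kg difference was 0.20, and without both adipose-rich arrays it was -0.00 (SE 0.14). At 500 mg/kg the difference was -0.11 with them and -0.21 (SE 0.14, adjusted p = 0.831 in limma) without them. The lowest kidney value, 5.77, was replicate 2 at 1 mg/kg.

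Ccng1 encodes cyclin G1, which recruits a phosphatase to Mdm2. Its dose groups were close in both organs. In liver the differences ran from -0.13 at 300 mg/kg to -0.05 at 10 mg/kg, all below 0, and each had an SE of 0.09. The 300 mg/kg livers read 7.79, 8.03, 8.05 and 8.03 beside controls at 8.18, 8.34, 8.07, 7.90 and 8.05, which overlap. In kidney the differences ran from -0.07 at 100 mg/kg to 0.10 at 0.1 mg/kg (SE 0.07).

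Gadd45a encodes a small stress-induced protein that binds PCNA and p21 and takes part in growth arrest. It was the most scattered of these genes in liver. Control livers read 8.83, 9.41, 8.73, 9.03 and 9.30, while the dosed livers ranged from 7.94 to 10.1. At 0.1 mg/kg the arrays read 10.1, 9.75, 9.34 and 8.30, and at 1 mg/kg 8.12, 8.005, 9.37 and 8.09. Both groups overlapped the controls. The 0.1 mg/kg group reached above and below the control range, and the 1 mg/kg group only below it. The differences were 0.30 and -0.66 (SE 0.38 each), with adjusted p of 1.00 and 0.856 in limma. At 500 mg/kg the difference was -0.05 (SE 0.38), with an interval of -0.83 to 0.72 that holds 1.5-fold changes both ways. In kidney, where Gadd45a was steady, the differences lay between -0.03 and 0.09 with an SE of 0.10. Without the control kidney with hepatocyte transcripts they lay between -0.06 and 0.06.

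Bbc3 encodes PUMA, a BH3-only protein that triggers the mitochondrial path of apoptosis. Control livers read 8.79, 7.71, 8.56, 8.44 and 8.36, and the 500 mg/kg livers read 8.62, 8.85, 9.04 and 8.38. All 4 dosed arrays lay above the control mean, though the groups overlapped. The difference of 0.35 (SE 0.15) had an unadjusted p of 0.0311 and an adjusted p of 0.298 in limma, beside 13.9% of all genes with an unadjusted p under 0.05 at that dose. It leaned on the control of replicate 2, the lowest of all 29 livers at 7.71: without that array it was 0.18 (SE 0.13, adjusted p = 0.585 in limma). In kidney the largest difference was 0.32 at 1 mg/kg (SE 0.16, adjusted p = 0.533 in limma), with arrays at 7.04, 6.33, 6.72 and 6.86. Without the control kidney with hepatocyte transcripts, the lowest Bbc3 control, it was 0.22 (SE 0.15). At 500 mg/kg the kidney difference was 0.02, and the sign turned both without that control (-0.08, SE 0.15) and without both adipose-rich arrays (-0.07, SE 0.17).

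Fas encodes the death receptor through which Fas ligand starts the extrinsic path of apoptosis. In liver the probe set 1384842_s_at read 6.59, 6.47, 6.70, 6.36 and 6.65 in the controls. At 500 mg/kg it read 6.25, 6.46, 6.26 and 6.12, with 4 of 4 arrays below the control mean and 1 array inside the control range. The difference was -0.28 (SE 0.20, adjusted p = 0.565 in limma), and at 300 mg/kg it was -0.31 (SE 0.20). Both lay on the side opposite to induction, and neither was called. The remaining Fas probe sets did not pass the filter. In liver, 1369900_at moved against 1384842_s_at from array to array (r = -0.27), while 1397221_s_at moved with it (r = 0.52). The dim 1369900_at averaged 3.17 in control livers and 3.44 at 500 mg/kg, the direction of induction. The dim 1397221_s_at averaged 4.07 and 3.82.

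Sesn1 encodes sestrin 1, a stress protein that restrains the growth kinase complex mTORC1, and Zmat3 a zinc finger protein that binds RNA. In liver the Sesn1 probe set 1372248_at differed from control by -0.24 at 10 mg/kg to -0.03 at 0.1 mg/kg (SE 0.15). It lay below control at all 6 doses, and every group overlapped the controls. In kidney its differences ran from -0.16 at 0.1 mg/kg to -0.03 at 1 mg/kg. The second Sesn1 probe set varied independently of the first (r = 0.18 in liver and -0.01 in kidney). Its liver means were 5.49, 5.44, 5.41, 5.57, 5.42 and 5.26 in order of dose, beside 5.40 in the controls. Only its 500 mg/kg mean lay below control, so at the other doses the probe sets differed in direction. Zmat3 in liver stayed between -0.02 and 0.11 of control (SE 0.07), the narrowest intervals of the set.

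In kidney Zmat3 read 7.42, 7.17, 7.05, 7.10 and 7.05 in the controls and 6.84, 6.95, 6.91 and 7.18 at 500 mg/kg. Of the 4 kidneys at 500 mg/kg, 3 were under the lowest control and 1 was above the second highest. The difference of -0.19 (SE 0.08) had an unadjusted p of 0.0313 and an adjusted p of 0.450 in limma. Without both adipose-rich kidneys it was -0.17 (SE 0.09, adjusted p = 0.768 in limma).

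Tests that pool doses gave no calls either. For the average of 300 and 500 mg/kg against control, limma called 0 of 8 genes in liver and 0 of 7 in kidney, and none had an unadjusted p under 0.05. The share called over all genes was 0.541% in liver and 0.0446% in kidney. The trend over the dose rank called 0 of 8 genes in liver, where 1.84% of all genes were called, and 0 of 7 in kidney, where 0.152% were. The kidney trend of Zmat3, -0.03 per rank, was the 1 trend with an unadjusted p under 0.05 (adjusted p = 0.434 in limma), as 9.76% of all genes had. The liver effect minus the kidney effect was called for 0 of 7 genes at 300 mg/kg and at 500 mg/kg, against 0% and 0.122% of all genes. Zmat3 at 500 mg/kg came closest, at 0.30 (SE 0.11, unadjusted p = 0.00853 and adjusted p = 0.346 in limma), and without both adipose-rich kidneys it was 0.28 (SE 0.12, adjusted p = 0.549). It was the only one of the 14 such contrasts with an unadjusted p under 0.05, which 5.5% of all genes had at 300 mg/kg and 8.54% at 500 mg/kg.

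The organs themselves differed far more than the doses did. In the controls, 6 of the 7 genes tested in both organs were called, 2 higher in liver and 4 higher in kidney, beside 76.1% of all genes. At an unadjusted p under 0.05 the same number passed, beside 77.6%. Cdkn1a read 6.47, 6.31, 6.38, 6.26 and 6.32 in control kidneys against 8.35 to 8.78 in control livers. Its liver level was 4.59-fold the kidney level (log2 difference 2.20, SE 0.22, adjusted p = 4.5e-13 in limma). Bbc3 read 6.70, 6.03, 6.68, 6.18 and 6.52 in control kidneys and was 3.86-fold higher in liver (1.95, SE 0.15, adjusted p = 9.2e-17). Neither gene had overlapping organs, in common with 63.4% of all genes.

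Ccng1 showed the reverse order. Control kidneys read 10.0, 9.99, 9.99, 10.1 and 10.2, against 7.90 to 8.34 in control livers, a log2 difference of -1.95 (SE 0.08, adjusted p = 5.9e-29 in limma). Mdm2 was also lower in liver, by -0.75 (SE 0.09), as were Sesn1 (-0.61, SE 0.12) and Zmat3 (-0.60, SE 0.07). All 3 Mdm2 probe sets and both Sesn1 probe sets pointed the same way, at -0.41 to -0.75 for Mdm2 and -0.32 and -0.61 for Sesn1. Gadd45a differed by -0.45 (SE 0.27) and was not called (adjusted p = 0.132 in limma). With only the control groups in the fit, where the scatter of the dosed livers does not enter, the same difference had an adjusted p of 0.00427.

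Fas passed the filter in liver and was dim in kidney, where its brightest probe set averaged 4.26 over the 29 arrays. It therefore has no fold between organs here. Leaving out the control kidney with hepatocyte transcripts kept all 6 calls. Cdkn1a was then at 2.19, Bbc3 at 1.85, Ccng1 at -1.96 and Mdm2 at -0.82. The sources at hand do not say whether RMA was run on both organs jointly, which bears on every value set across organs.

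Animals given the same dose differed widely in some of these genes and little in others. In liver the pooled SD within doses was 0.63 for Gadd45a, at percentile 99.4 of all genes tested, and 0.44 for Cdkn1a, at percentile 98.2. Fas followed with 0.32, at percentile 95.2, while the median over all genes was 0.15. Ccng1 (0.13), Mdm2 (0.13) and Zmat3 (0.09) were below that median. In kidney the pattern was narrower: Cdkn1a had an SD of 0.25 (percentile 89.6), Bbc3 0.24 (percentile 89.2) and Gadd45a 0.15 (percentile 62.3), beside a median of 0.14. The Cdkn1a SD includes the adipose-rich kidney of replicate 3 at 300 mg/kg, which lay 0.59 above its dose mean. Without both adipose-rich kidneys the limma SE at 0.1 mg/kg was 0.13 for Cdkn1a and 0.15 for Bbc3. For all 14 probe sets in both organs, no step between neighbouring dose means exceeded the SD within doses. Neighbours in a ranked order lie close by construction, so this does not show that doses were alike. From lowest to highest dose mean the spread ran from 0.75 times that SD (Mdm2 1384427_at in liver) to 2.24 times (Zmat3 in kidney).

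**Figure D4:**
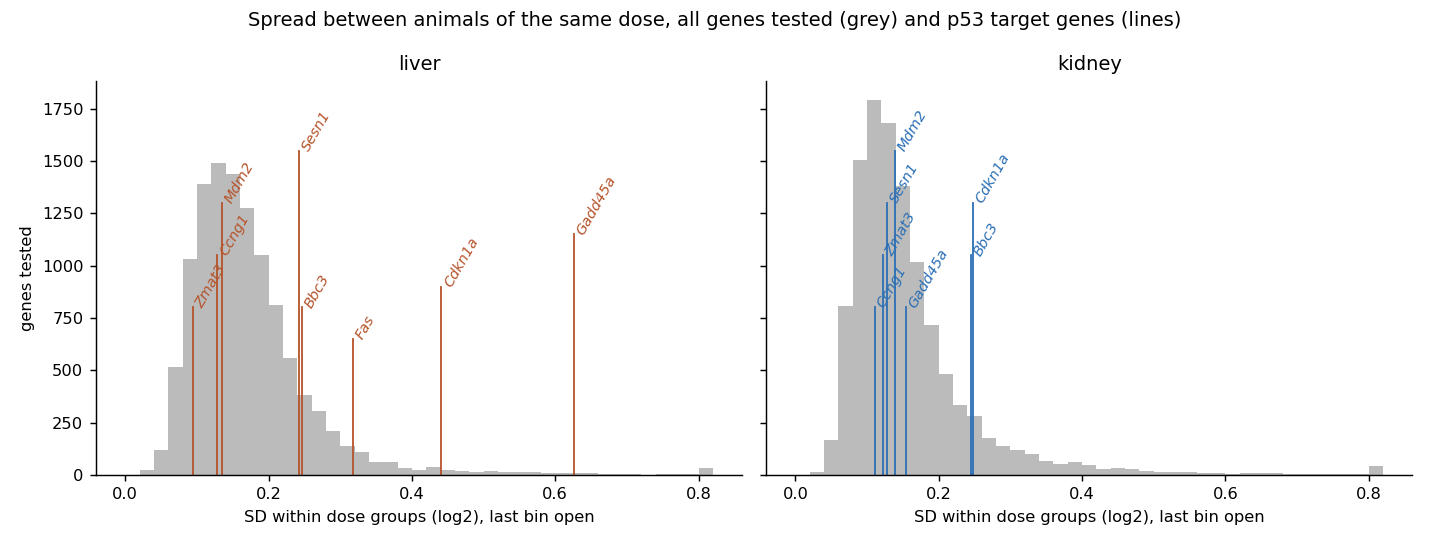
Number of genes tested (vertical axis) by pooled SD within dose groups on the log2 scale (horizontal axis, last bin open), for liver and kidney, with a line at the SD of each p53 target gene. In liver Gadd45a (0.63) and Cdkn1a (0.44) lie far in the right tail and Zmat3 (0.09) in the left part. In kidney the highest are Cdkn1a (0.25), whose SD includes a high value on an adipose-rich array, and Bbc3 (0.24).

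The Cdkn1a spread was not even across doses. Control livers had an SD of 0.16, the 0.1, 1 and 10 mg/kg groups 0.55, 0.92 and 0.29, and the 100, 300 and 500 mg/kg groups 0.25, 0.13 and 0.29. The second probe set had 0.07 in controls, 0.35, 0.88 and 0.55 at the low doses and 0.13, 0.12 and 0.29 at the high doses. These SDs were compared by eye only and no test of unequal spread was run. Gadd45a was scattered at every dose in liver, with SDs from 0.54 to 0.77 in the dosed groups and 0.29 in the controls.

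Targets of a shared regulator could vary together from animal to animal, so each pair was compared over the 29 deviations from the dose means of an organ, with 100000 permutations within doses and adjustment over the pairs of the organ. In liver 0 of 28 pairs and in kidney 0 of 21 pairs passed. The pair with the smallest p in liver was Fas and Sesn1 (Pearson's r = 0.51, permutation p = 0.00893, adjusted p = 0.25). Spearman's rho was 0.49 (permutation p = 0.0141, adjusted p = 0.395), and r was 0.40 without the 2 livers farthest from the median of Fas. Bbc3 and Ccng1 went in opposite directions in liver (r = -0.49, permutation p = 0.0294, adjusted p = 0.412; rho = -0.42, permutation p = 0.0445, adjusted p = 0.624). Their r was -0.47 without the 2 farthest arrays.

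In kidney the smallest p belonged to Mdm2 and Gadd45a (r = 0.48, permutation p = 0.00849, adjusted p = 0.178). Their rho was 0.51 (permutation p = 0.00830, adjusted p = 0.159), and r was 0.48 without the 2 farthest arrays. Cdkn1a and Bbc3 in kidney had r = 0.51 (permutation p = 0.0299, adjusted p = 0.215) and rho = 0.47 (permutation p = 0.0279, adjusted p = 0.195), with r = 0.57 without the 2 farthest arrays. Cdkn1a and Gadd45a, the most scattered pair in liver, were nearly unrelated there (r = 0.06, permutation p = 0.80, adjusted p = 0.986; rho = 0.08, permutation p = 0.726, adjusted p = 0.897). Without the 2 farthest arrays r was 0.07.

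**Figure D5:**
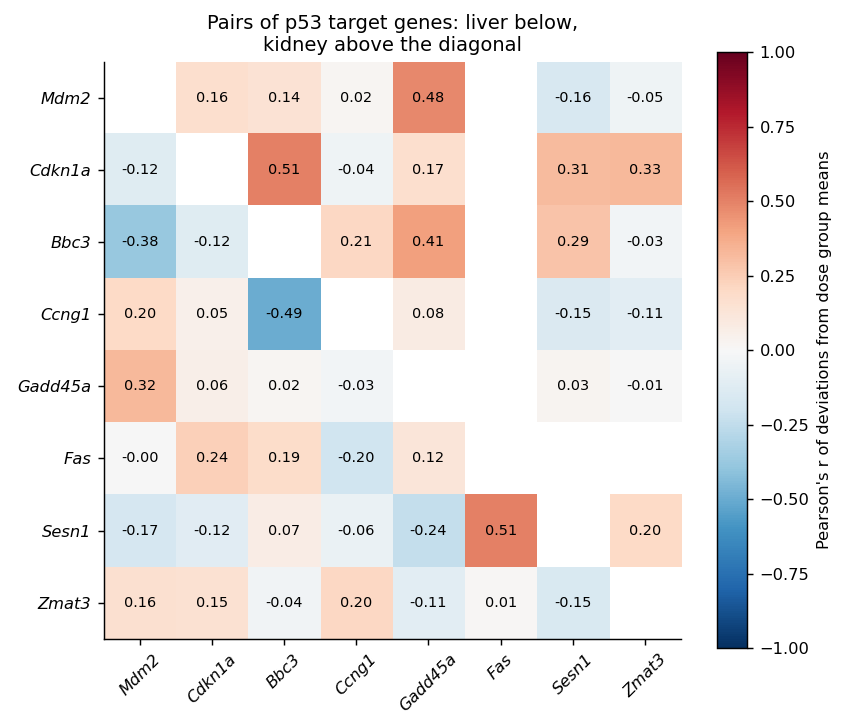
Pearson's r between the deviations from the dose means of each pair of p53 target genes over 29 arrays, liver below and kidney above the diagonal, with the colour scale running from -1 to 1. The largest sizes are 0.51 for Fas and Sesn1 in liver and for Cdkn1a and Bbc3 in kidney, most cells are pale, and no pair passed after adjustment over the 28 pairs in liver or the 21 in kidney.

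The genes whose deviations most resembled those of each member were mostly outside the p53 lists. They were picked as the highest of 11275 correlations over 29 livers, so they are descriptions without a test, and the arrays share their normalization. For Gadd45a in liver they were Cish, an inhibitor of cytokine signalling (r = 0.82, rho = 0.74), Gadd45g, its own paralog (r = 0.82, rho = 0.78), and the pseudokinase gene Trib1 (r = 0.82, rho = 0.79). Without the 2 livers farthest from the median of Gadd45a, r was 0.76, 0.75 and 0.79. Gadd45g ran from 6.45 to 9.70 over the livers.

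For Cdkn1a in liver they were Clpx, a mitochondrial chaperone subunit, Pnrc1, a nuclear receptor coactivator, and Nfil3, a repressor linked to the circadian clock, each at r = 0.76. Spearman's rho was 0.64, 0.65 and 0.61, and without the 2 farthest livers r was 0.64, 0.68 and 0.65. Fas was nearest to Klrg1, a receptor of lymphocytes and natural killer cells (r = 0.88, rho = 0.85), and Sesn1 to Smad3, a transducer of TGF-beta signals (r = 0.81, rho = 0.80).

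The wider pathway was read from 4 further gene lists. Of 30 other p53 targets, 22 were tested in liver, and at 500 mg/kg 0 were called higher and 1 lower, with 12 above 0 and a median of 0.01. The called gene was Steap3, which encodes a ferrireductase. It stood at 7.17 ± 0.33 (SD, n = 4) against 7.75 ± 0.06 (SD, n = 5), a difference of -0.58 (SE 0.13, adjusted p = 0.0320 in limma). The call was lost without any single one of the 5 controls, without replicate 1, 3 or 4 at 500 mg/kg, with only the compared groups in the fit and with the replicate block, and the adjusted p reached 0.111. Perp, a desmosome protein of epithelia, was at 0.16 and Ei24 at -0.13, and neither was called. In kidney 21 of these targets were tested and 0 were called, 2 had an unadjusted p under 0.05 as did 9.58% of all genes, and the median was 0.01. In liver 2 of the 22 had, beside 13.9% of all genes.

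Of 18 genes for p53's regulators, 14 were tested in liver and 12 in kidney, and at 500 mg/kg 0 were called in either organ by limma, with 2 and 3 at an unadjusted p under 0.05. Over all genes that share was 13.9% in liver and 9.58% in kidney. The acetyltransferase gene Kat5 was at 0.22 in liver (SE 0.07, adjusted p = 0.136) and the ribosomal protein gene Rpl11, whose product binds Mdm2, at 0.16 in kidney (SE 0.04, adjusted p = 0.158). The checkpoint kinase gene Chek1 stood at 0.38 in liver (SE 0.16, adjusted p = 0.283) and at -0.41 in kidney (SE 0.16, adjusted p = 0.367). Of 21 family members, such as other sestrins, Gadd45 proteins, caspases and BCL2 proteins, 17 were tested in liver and 15 in kidney, with 0 called in either and 4 and 1 at an unadjusted p under 0.05. Casp8, the caspase that Fas activates, was at -0.34 in liver (SE 0.11, adjusted p = 0.127), and its adaptor Fadd at 0.28 (SE 0.09, adjusted p = 0.152).

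The list with the lowest median was that of 16 cell cycle genes known to be repressed through p21. Of the 13 tested in liver at 500 mg/kg, none lay above 0, the median was -0.45 beside 0.01 over all genes, and 1 was called, lower. That gene was Nusap1, which encodes a spindle protein: 5.74 ± 0.22 (SD, n = 4) against 6.44 ± 0.22 (SD, n = 5), a difference of -0.70 (SE 0.16, adjusted p = 0.0245 in limma). Without control replicate 4, or without replicate 1 or 2 at 500 mg/kg, the Nusap1 call was lost, with an adjusted p of up to 0.0949. Cdk1, the mitotic kinase, was at -0.97 (SE 0.26, adjusted p = 0.066) and Mki67, the proliferation antigen, at -0.99 (SE 0.28, adjusted p = 0.0807). The liver dose trend called 4 of the 13, all falling: Nusap1, Cdk1, Mki67 and Ccna2. Nusap1 kept its trend call with each array left out, while the number called fell to 1 without replicate 3 at 500 mg/kg and to 2 without replicate 1 or 4 of that dose. Over all genes the trend called 1.84%. In kidney at 500 mg/kg none of 15 lay above 0, the median was -0.31, and 0 were called. An unadjusted p under 0.05 was reached by 10 of 13 in liver, beside 13.9% of all genes, and by 11 of 15 in kidney, beside 9.58%. Without both adipose-rich kidneys the kidney count was 7 of 15, beside 7.13% of all genes, and the median was -0.31. Without the control kidney with hepatocyte transcripts it was 6 of 15, beside 7.06% of all genes, with a median of -0.31. At 300 mg/kg the kidney count was 0 of 15, beside 5.74% of all genes, with a median of -0.05 and 4 above 0. The liver count at 300 mg/kg was 6 of 13, beside 7.89%, with a median of -0.30. The list was chosen with earlier results of these data known, so these counts describe it and are not an independent test.

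Cdkn1a itself was at -0.29 in liver and -0.11 in kidney at 500 mg/kg and was called in neither. Of 9 macrophage and lymphocyte markers tested at 500 mg/kg in liver, 1 was called, lower, beside 0.958% of all genes. Of the 9, 3 lay above 0 and the median was -0.25. An unadjusted p under 0.05 in limma was reached by 5 of the 9, beside 13.9% of all genes. In the liver dose trend 6 of the 9 reached it, beside 16.6%. The called marker was Cd74 (-0.59, SE 0.14, adjusted p = 0.0374 in limma), a call lost without control replicate 2, 4 or 5 or replicate 1, 2 or 3 at 500 mg/kg. The mean of this list ran from 6.89 to 7.23 at 500 mg/kg and from 7.07 to 7.24 in the controls, and its part in the cell cycle result was not tested. Of 6 hepatocyte markers in the same comparison, 1 was called, Apoa1, the gene of the main HDL protein, which was lower (-0.30, SE 0.07, adjusted p = 0.0245 in limma). No hepatocyte marker was called without control replicate 2 or 5, without replicate 1 or 4 at 500 mg/kg, with only the compared groups in the fit or with the replicate block. Of these 6 markers 2 lay above 0, with a median of -0.03, and their mean ran from 13.76 to 13.796 at 500 mg/kg against 13.798 to 13.88 in the controls. Those groups do not overlap, though their nearest means were 13.796 and 13.798, and Apoa1 is part of each mean. Among single genes, 5.59% had groups without overlap at this dose. An unadjusted p under 0.05 in limma was reached by 3 of the 6 markers, beside 13.9% of all genes. The part of this list in the values at 500 mg/kg was not tested.

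A pair of lists of stress genes that also respond outside the p53 pathway was set beside the members. Of 12 genes of the ATF4 stress response, 0 were called in liver at 500 mg/kg, 2 had an unadjusted p under 0.05 and 10 lay above 0. Trib3, a pseudokinase induced by ATF4, was the largest at 1.66 (SE 0.46, adjusted p = 0.0804 in limma). Of 11 tested glucocorticoid and FOXO targets, 0 were called there, with 3 at an unadjusted p under 0.05 and a median of -0.03. In kidney 0 of 12 and 0 of 11 were called at 500 mg/kg, with 2 of each at an unadjusted p under 0.05. Over all genes the share under 0.05 was 13.9% in liver and 9.58% in kidney.

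Between control organs the other p53 targets went both ways. Of 21 tested, 10 were called higher in liver and 6 higher in kidney, beside 76.1% of all genes called. Plk2, a polo-like kinase, was higher in liver by 3.00 (SE 0.15), Steap3 by 2.52 (SE 0.14) and Phlda3, an inhibitor of AKT signalling, by 2.36 (SE 0.22). Sesn2, a second sestrin, was higher in kidney, at -1.13 (SE 0.15), as were Cd82 (-0.87, SE 0.06) and the phosphatase gene Ppm1d (-0.75, SE 0.09). Among 15 family members, 1 was called higher in liver and 10 higher in kidney, beside the same 76.1%, with the cell cycle inhibitor Cdkn1c at -2.29 (SE 0.15), opposite to its relative Cdkn1a.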

How the data were processed

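RNA was measured on Affymetrix rat expression arrays. The authors deposited log2 values made with RMA, per the submitters' processing notes, which give no version. Groups and replicate numbers came from sample titles, and gene names from the array's annotation (20826 probe sets with 1 symbol). Doses were compared with limma 3.58.1 in R 4.3.3 (lmFit, then eBayes with trend) in 1 fit per organ over 29 arrays, and organs in 1 fit of 14 groups. In all, 11275 genes entered in liver, 11204 in kidney and 10673 between organs. Pairs were compared in Python 3.11.15. Both kinds of test were checked on simulated data. The text names all members, a selection, from each further list, of called genes and of the up to 4 ranked first by p at 500 mg/kg, and genes nearest to members. The members and lists were chosen with earlier results of these data known. Array medians were 5.26 to 5.32 in liver and 5.33 to 5.38 in kidney, and 0 pairs of arrays were identical. Alternatives covered the filter, probe set choice, groups in the fit, spread model, weights, normalization, replicate block, minimum fold, linear dose and each array left out. The fits without 2 adipose-rich kidneys and with a random block between organs were chosen after seeing the data.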

Additional observations from a re-analysis of the deposited data

Results flagged for a closer look

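Among 105 groups of 4 or 5 arrays of these genes, 7 had 1 array far from the others by Dixon's test, and chance flags about 1 in 20 groups, or 5.25 here. In liver, Gadd45a stood out on replicate 3 at 1 mg/kg (9.37, the others 8.005 to 8.12) and on replicate 1 at 100 mg/kg (9.64, the others 8.52 to 8.61), both high. In kidney, where Gadd45a was steady, it was low on replicate 1 at 10 mg/kg (9.39, the others 9.55 to 9.57) and on replicate 4 at 500 mg/kg (9.35, the others 9.64 to 9.69). Ccng1 was low on replicate 1 of the livers at 300 mg/kg (7.79, the others 8.03 to 8.05). A single liver, replicate 2 at 100 mg/kg, was low for both Fas (5.90, the others 6.71 to 6.83) and Sesn1 (6.94, the others 7.42 to 7.48), the pair with the highest correlation in liver. Without that array the Fas difference at 100 mg/kg was 0.21 (SE 0.19, adjusted p = 0.999 in limma) in place of -0.01.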

How the results depend on the processing

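No member was called against control, in a trend or between organ effects under any alternative or with any array left out: 18 of the 19 comparisons had 0 calls throughout. The remaining one, control liver against control kidney, kept 6 calls in the reported fit and had 6 to 7 over the alternatives. The adjusted p of Cdkn1a in liver ranged from 0.440 to 1.000 at 0.1 mg/kg and from 0.119 to 0.964 at 10 mg/kg. With the replicate number as a block the members again had 0 calls. Deviations of same-numbered arrays of an organ had a mean r of -0.01 in liver and 0.03 in kidney, with 13 and 25 of 84 pairs over 0.1. For arrays of other numbers the mean r was 0.002 and -0.008. Of the arrays, 6 of 29 livers and 10 of 29 kidneys were nearest to their own number. Whether the numbers pair the samples was not tested. The replicate block moved the count over all genes at 500 mg/kg in liver from 108 to 33. Across alternatives this count ran from 33 to 263, the liver trend from 160 to 813 and the kidney count at 500 mg/kg from 0 to 69. Of the further lists, the cell cycle genes had 1 to 3 calls at 500 mg/kg in liver over the alternatives and 0 to 3 with an array left out, and 2 to 5 and 1 to 6 in the liver trend. The other p53 targets had 0 to 1 call at 500 mg/kg in liver. Pairs in kidney passed in 0 to 2 cases when a dose group was left out, with 2 without the 300 mg/kg group. Single values that moved without a call were Mdm2 in kidney as the mean of its probe sets (-0.11, -0.06 and -0.03 at 1, 100 and 500 mg/kg) and Bbc3 in liver without control replicate 2 (-0.02, -0.15, -0.11 and -0.06 at 0.1, 10, 100 and 300 mg/kg). Cdkn1a in kidney at 1 mg/kg was at 0.18 without replicate 2. Livers and kidneys with the same dose and number, which the labels used here do not tie to 1 animal, had a mean r of 0.14 (21 of 29 pairs over 0.1) and a consensus correlation of 0.0814. With that pairing as a random block, chosen after seeing the data, 6 members were again called between control organs and 0 between effects, and over all genes the effects at 500 mg/kg had 37 calls in place of 13. Without both adipose-rich kidneys the kidney trend had 0 calls over all genes in place of 17. Fas in kidney is near background, which limits what its values there can show.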
